A study of Mus musculus with 21 samples.

Results

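Genes that are switched on in dividing cells were followed in the brain, liver and skin of newborn mice. The set was given by name and holds 36 of the 24391 gene symbols in the count files, 12 that act in S phase, when DNA is copied, and 24 that act in mitosis, when the chromosomes are separated. All 36 members were found in the files and passed the filter on low counts in every comparison. The mice were newborn pups (P0) of the C57BL/6 strain (C57BL/6J in the study's methods). In the 2 Jak1 KI mice, 1 allele of Jak1, the gene of a cytokine receptor kinase, carries an exchange of histidine for aspartic acid with silent changes at the neighbouring codons (label Jak1 KI +/-), and the 5 WT mice are unedited. The KI mice were bred from a mosaic founder male, so they stand for 1 editing event. Each mouse gave 1 library per tissue, 21 libraries in all, with 26549326 to 38388133 reads counted on genes. The question was how much cell-cycle RNA each newborn tissue holds in WT mice, and whether KI mice differ from WT mice within a tissue, for S phase and mitosis apart.

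The cell cycle runs on waves of transcription. Before S phase, E2F factors release the genes that load and open the MCM helicase and that make the building blocks of DNA. Later, in G2 and mitosis, a further set of genes rises through the cell cycle homology region (CHR) of their promoters, and their RNA and protein are cleared as cells leave mitosis. At birth the mouse liver still makes blood, and dividing red cell precursors lie among the hepatocytes, while division in the newborn brain is limited to certain zones, among them the outer granule layer of the cerebellum, and in the skin to basal keratinocytes, hair follicles and dermal cells. RNA of a whole tissue cannot tell fewer dividing cells from less RNA per dividing cell.

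The promoters of 31 members, 11 of S phase and 20 of mitosis, were found in the RefSeq promoter table (mouse build GRCm38.p6), which holds 250 bases before and 50 bases after each start. Ccna2, Aurkb, Kif20a, Tpx2 and Mcm4 had no entry. Short words were searched on both strands. The CHR word TTTGAA was found in 15 of the 20 mitosis promoters and in 1 of the 11 S-phase promoters (Mcm2), against 17.9% of all 32851 promoters. Any of 4 E2F words (TTTCCCGC, TTTCGCGC, TTTGCCGC and TTTGGCGC) was found in 6 of the 11 S-phase promoters (Mcm3, Mcm5, Mcm6, Mcm7, Cdc6 and Cdt1) and in 1 of the 20 mitosis promoters (Cdk1), against 2.26% of all. The word CCAAT was present in 17 mitosis and 8 S-phase promoters and in 37.4% of all. These matches describe letters in a window and not sites that a factor was seen to occupy.

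Upstream sequences of 4 mitosis genes are shown because they carry the CHR word in capitals, read 5′ to 3′ along the gene's strand and ending at the base before the start. In Kif11 the word reads TTCAAA because it lies on the other strand, and the Cdk1 sequence also has an E2F word in capitals. In GRCm38.p6 the Mki67 sequence is chr7:135716380-135716529 on the minus strand, that of Cdk1 chr10:69352913-69353062 on the minus strand, that of Cdc20 chr4:118437344-118437443 on the minus strand and that of Kif11 chr19:37376282-37376381 on the plus strand.
Mki67: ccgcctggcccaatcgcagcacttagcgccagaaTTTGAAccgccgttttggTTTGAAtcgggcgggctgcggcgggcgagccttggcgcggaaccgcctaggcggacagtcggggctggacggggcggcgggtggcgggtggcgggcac
Cdk1: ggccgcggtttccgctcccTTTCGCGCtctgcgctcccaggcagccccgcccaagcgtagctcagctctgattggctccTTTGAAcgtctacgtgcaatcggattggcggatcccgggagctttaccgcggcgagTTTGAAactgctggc
Cdc20: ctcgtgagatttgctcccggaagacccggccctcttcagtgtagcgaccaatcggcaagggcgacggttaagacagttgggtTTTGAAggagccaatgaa
Kif11: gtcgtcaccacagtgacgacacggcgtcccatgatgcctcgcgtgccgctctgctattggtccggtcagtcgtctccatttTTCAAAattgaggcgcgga
The CHR words begin 116 and 98 bases before the start in Mki67, 71 and 15 in Cdk1, 18 in Cdc20 and 19 in Kif11.

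For comparison, 3 S-phase promoters are shown with E2F words in capitals, in the same reading direction. In GRCm38.p6 the Mcm5 sequence is chr8:75109349-75109508 on the plus strand, that of Mcm6 chr1:128359706-128359825 on the minus strand and that of Cdc6 chr11:98908001-98908150 on the plus strand.
Mcm5: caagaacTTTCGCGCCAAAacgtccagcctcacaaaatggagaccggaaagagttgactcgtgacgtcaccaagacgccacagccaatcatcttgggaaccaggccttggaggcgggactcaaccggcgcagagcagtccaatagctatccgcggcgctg
Mcm6: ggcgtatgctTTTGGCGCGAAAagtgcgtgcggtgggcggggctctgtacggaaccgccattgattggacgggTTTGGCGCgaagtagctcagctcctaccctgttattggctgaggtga
Cdc6: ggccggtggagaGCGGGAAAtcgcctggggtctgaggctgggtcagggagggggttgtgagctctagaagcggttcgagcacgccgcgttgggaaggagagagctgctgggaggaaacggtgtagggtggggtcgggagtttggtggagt
In Mcm5 and in the upstream run of Mcm6 a pair of words on opposite strands overlap (TTTCGCGC with GCGCCAAA, and TTTGGCGC with GCGCGAAA), so that each run of capitals holds both. The words begin 153 and 149 bases before the start in Mcm5, 110, 106 and 47 in Mcm6, and 138 in Cdc6, where the word reads GCGGGAAA.

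Every member was detected in every library. The lowest count was 29, for Cdc6 in a brain, and the highest was 37049, for Mki67 in a liver. Levels are given as CPM, counts scaled to an equal library total after TMM scaling. To put a tissue on 1 scale, the log2 CPM was averaged over the 12 S-phase and over the 24 mitosis members, and each library has both scores.

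The WT livers had the highest scores and the WT brains the lowest. The S-phase score was 6.79, 6.89, 7.06, 7.14 and 7.28 in the WT livers, 5.68, 5.75, 5.80, 5.81 and 6.11 in the WT skins, and 3.72, 3.88, 4.14, 4.17 and 4.35 in the WT brains. The mitosis score ran from 6.29 to 6.70 in the livers, from 5.74 to 5.96 in the skins and from 2.89 to 3.94 in the brains. The tissues did not overlap on either score, and the brains were the most spread. The paper reports a lower RNA integrity for the skin samples than for the liver samples. Comparisons with the skin therefore cannot tell tissue from RNA quality, and the part of RNA quality was not tested.

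**Figure D1:**
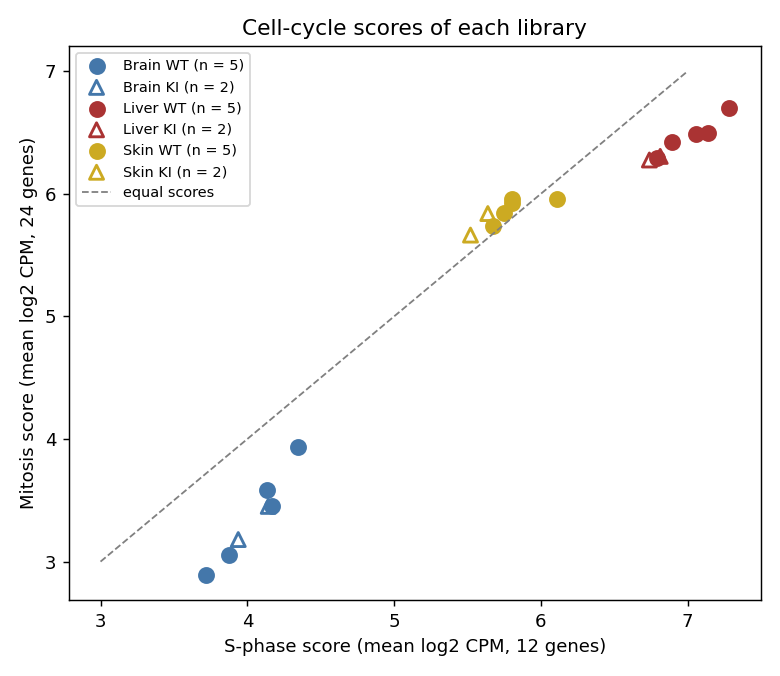
S-phase score (x axis) against mitosis score (y axis) of the 21 libraries, both as mean log2 CPM, with filled circles for WT and open triangles for KI mice and a dashed line where the scores are equal. Livers and brains lie below the line, while the skins lie on both sides of it, from 0.20 above to 0.15 below.

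The balance of the scores also differed between tissues, and this measure does not depend on how libraries are scaled. The S-phase score minus the mitosis score was 0.47 to 0.64 in the WT livers and 0.41 to 0.83 in the WT brains, but -0.15 to 0.15 in the WT skins. In 4 of the 5 WT skins the mitosis score was the higher, and in all WT livers and brains the S-phase score was. The exception among the skins was WT 4 (0.15). The values in the KI mice were 0.46 and 0.51 in the liver, 0.76 and 0.69 in the brain, and -0.20 and -0.14 in the skin. KI 1 and KI 2 in the brain and KI 2 in the skin fell within the range of the WT mice, KI 1 in the skin lay below it, and in the liver KI 1 lay just under the lowest WT mouse.

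Against the brain, WT livers were higher for all 12 S-phase and all 24 mitosis members (edgeR, adjusted p under 0.1 over all genes tested), where 40.2% of 17071 genes were called higher. The median log2 fold change was 3.00 for S phase and 3.01 for mitosis, with a median of -0.06 over all genes tested. All 5 WT livers lay above all 5 WT brains for each of the 36 members, as they did for 34.2% of all genes. Mki67, the proliferation marker that coats mitotic chromosomes (mm9, chr7:142881471-142908062, minus strand, 14 exons), had the largest difference. It stood at 45.8, 19.2, 39.8, 21.6 and 18.6 CPM in WT brains 1 to 5 and at 1483, 1160, 1234, 1180 and 1080 CPM in WT livers 1 to 5, a 42.3-fold difference (log2 fold change 5.40, standard error 0.278, adjusted p = 3.39e-11). The smallest difference was that of Pcna, the sliding clamp of the DNA polymerases, which rose from 24.8 ± 5.37 (SD, n = 5) to 77.1 ± 8.29 CPM (SD, n = 5), or 3.10-fold.

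Between these, the licensing factors Cdc6 and Cdt1, which load the helicase on DNA, had log2 fold changes of 4.53 and 3.24. The 6 MCM helicase subunits ran from 2.20 (Mcm7) to 3.62 (Mcm3). Among the genes of nucleotide synthesis, Rrm2 and Rrm1, the subunits of ribonucleotide reductase, gave 3.55 and 2.38, and Tyms, thymidylate synthase, gave 2.38. The cyclins and master kinases of mitosis ran from 2.44 (Ccnb1) to 3.80 (Ccnb2). The spindle checkpoint genes Bub1, Bub1b, Ttk and Cdc20 ran from 2.24 to 2.82, and the chromosomal passenger genes Aurkb, Birc5 and Cdca8 from 2.61 to 3.30. Centromere genes followed with 2.71 (Cenpf), 2.77 (Cenpa) and 3.46 (Cenpe). The motors and spindle proteins ran from 2.06 (Kif2c) to 3.43 (Nusap1), and Top2a, which untangles chromosomes, stood at 3.25.

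The WT skins were also above the WT brains for all 12 S-phase and all 24 mitosis members, against a background of 40.3% of genes called higher. Here the medians differed, with 1.94 for S phase and 2.30 for mitosis, and 0.02 over all genes tested. Mki67 was again the most different, with 309, 254, 316, 348 and 324 CPM in WT skins 1 to 5 (log2 fold change 3.42, standard error 0.253, adjusted p = 4.93e-09). The kinase gene Aurkb and the cyclin gene Ccnb2 followed with 3.04 and 3.08, and the motor gene Kif23, needed for the last cut between daughter cells, with 3.02. At the low end stood S-phase genes, Pcna with 0.52 (standard error 0.141, adjusted p = 0.00336), Rrm1 with 1.14, Rrm2 with 1.28 and Mcm7 with 1.32. Pcna was the only member whose WT skins and WT brains overlapped, at 28.7 to 43.0 and 20.8 to 33.9 CPM, and over all genes 31.3% had every skin above every brain.

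Liver against skin set the S-phase members and the mitosis members apart. All 12 S-phase members but 16 of the 24 mitosis members were called higher in the WT livers, against 32.5% of all genes, and the medians were 1.16 and 0.53, with -0.10 over all genes tested. Rrm2 (mm9, chr12:25393106-25399011, plus strand, 10 exons) had the largest difference. It stood at 356, 261, 292, 248 and 214 CPM in WT livers 1 to 5 and at 55.3, 55.0, 51.0, 72.3 and 51.3 CPM in WT skins 1 to 5 (log2 fold change 2.27, standard error 0.162, adjusted p = 4.76e-09). Every liver held more than any skin, as was so for all 12 S-phase and 18 of the 24 mitosis members, against 27.5% of all genes. Cdc6 followed with 60.6, 51.0, 60.7, 41.4 and 45.4 CPM in the livers against 10.3 to 14.5 CPM in the skins (log2 fold change 2.17, standard error 0.261). Mki67 was the mitosis member with the largest difference (1.99, standard error 0.238). After it came Ccna2, the cyclin that serves both S phase and the entry into mitosis (1.32), Nusap1, which bundles spindle microtubules (1.26), and Aurka, a kinase of the spindle poles (1.19).

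Of the 8 mitosis genes that were not called between liver and skin, Cdc20, which activates the ligase that starts anaphase, stood at 50.8 ± 7.68 CPM (SD, n = 5) in the livers and 49.2 ± 5.53 CPM (SD, n = 5) in the skins. Kif23 stood at 58.5 ± 9.38 and 57.7 ± 4.89 CPM, and Kif2c, a motor that takes apart microtubule ends, at 28.6 ± 4.04 and 30.0 ± 4.03 CPM. The others were Ccnb1 (log2 fold change 0.15), Cdk1 (0.26), Aurkb (0.24), Ttk (0.12) and Bub1b (0.37). Missing the threshold does not show equal levels, and the estimate for Cdc20 was 0.05 with a standard error of 0.214. Tyms had the smallest difference among S-phase members (0.32, standard error 0.112, adjusted p = 0.0194).

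**Figure D2:**
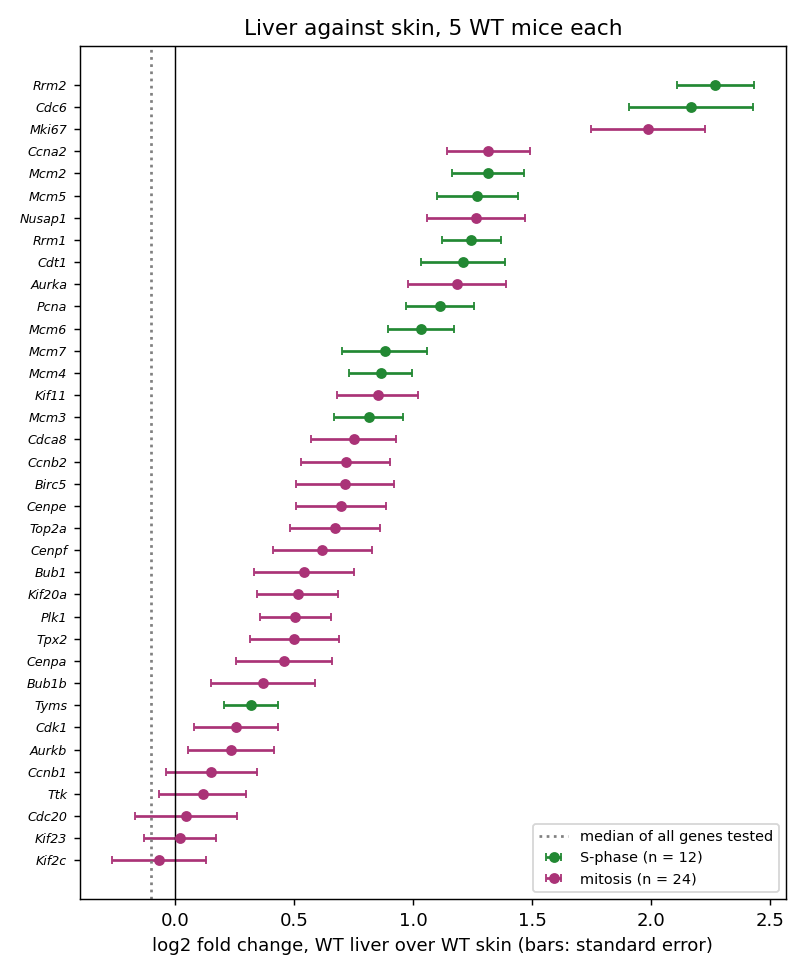
Log2 fold change of each member between WT livers and WT skins (x axis, bars of 1 standard error, 5 mice per tissue), ordered by size, green for S phase and purple for mitosis. Rrm2 (2.27), Cdc6 (2.17) and Mki67 (1.99) stand apart at the top, while the lowest 7 members, from Cdk1 (0.26) to Kif2c (-0.07), are mitosis genes. Under total-count scaling the direction turns for 15 members that are called under either scaling, and for Bub1b, which is called under neither.

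The direction between liver and skin rests on the scaling. The 8 hepatocyte markers alone summed to 257457 ± 19414 CPM (SD, n = 5) in the WT livers, and the TMM factors were 0.685 to 0.752 in the WT livers and 1.11 to 1.27 in the WT skins. With total counts alone, the median over all genes tested moved from -0.10 to -0.81, the S-phase median to 0.46 and the mitosis median to -0.18. Relative to all genes, the medians were 1.26 and 0.63 with TMM and 1.27 and 0.63 with total counts. Under total counts, 8 S-phase members were called higher and 1 lower (Tyms, -0.39), and 4 mitosis members were called higher and 7 lower. Of all 17071 genes, 2884 were called higher and 11144 lower. Thus 20.6% of all calls were higher, against 45.0% with TMM. The calls against the brain held for all 36 members under that scaling, with medians of 2.22 and 2.22 for liver over brain.

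The order of the genes within a tissue was compared per length, as CPM per kilobase of the annotated transcript. In WT brains Rrm1 (16.5) and Pcna (16.3) led the 36 members, and Mki67 came at place 25 (2.88). In WT livers Rrm2 (125) and Mki67 (122) led, with Rrm1 (86.3) next. In WT skins the leading genes were Cenpa, the histone variant that marks centromeres (47.6), Ccnb2 (46.6) and Top2a (45.6), and the highest S-phase member was Rrm1 (36.5). The lowest member was Cdc6 in the brain (0.485) and in the skin (2.504), and the checkpoint kinase gene Ttk in the liver (7.19).

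Other genes of the cell cycle were taken from lists of replication genes, mitosis genes, G1 cyclins and kinases, CDK inhibitors and transcription factors. Of 36 other replication genes, 32 were called higher and 1 lower in WT livers over brains, and 27 higher and 1 lower in livers over skins. All 46 other mitosis genes were called higher in livers over brains, and 29 higher and 4 lower in livers over skins. The medians of these 36 and 46 genes were 1.75 and 2.61 in livers over brains, and 0.53 and 0.56 in livers over skins. The gap between S-phase and mitosis members in livers over skins (1.16 and 0.53) was thus not seen in the wider lists. Over all 17071 genes tested, 6856 were called higher and 7385 lower in livers over brains. In livers over skins, 5555 of all genes were called higher and 6791 lower. Of 11 G1 cyclins and kinases, 8 were higher and 1 lower in liver over brain, and 6 higher and 4 lower in liver over skin. Ccnd1, the cyclin D that answers growth signals, had 258 ± 33.3 CPM (SD, n = 5) in the skin against 56.6 ± 9.07 in the liver and 47.2 ± 6.57 in the brain. Of 7 CDK inhibitors, 1 was higher and 4 were lower in livers over skins, and Cdkn1c, an imprinted brake on the cycle, had 1043 ± 224 CPM in the skin against 136 ± 28.8 in the liver. Among 18 transcription factors, 11 were higher and 0 lower in livers over skins (edgeR, 0 lower also at an unadjusted p under 0.05). E2f2 stood at 397 ± 55.8 CPM in the liver, 28.8 ± 6.48 in the skin and 3.13 ± 0.758 in the brain.

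The tissue labels fitted the marker levels. All 8 hepatocyte markers were above 1 CPM in the WT livers, and neuron, keratinocyte and hair follicle markers were mostly under it there. All 8 erythroid markers were called higher in liver over brain and in liver over skin, where their median log2 fold changes were 9.39 and 8.42, in the tissue with the highest cell-cycle scores. In the WT brains 7 of the 8 erythroid markers were under 1 CPM. The part of these cells in the liver's levels was not tested.

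Mki67 was the only member called between KI and WT livers, and that call depended on the settings. It was not made with total counts, in a fit of all 21 libraries or at an adjusted p under 0.05. Mki67 stood at 865 and 854 CPM in the KI livers against 1483, 1160, 1234, 1180 and 1080 CPM in WT livers 1 to 5. Both KI livers lay below every WT liver. By edgeR this was a difference of -0.50 on the log2 scale, with a standard error of 0.137 and an adjusted p of 0.0955. Thus 1 of the 24 mitosis members and 0 of the 12 S-phase members were called lower, against 1.68% of 14966 genes. DESeq2 also called 1 and 0, where it called 641 of all 14966 genes lower. At an unadjusted p under 0.05 from edgeR, 4 mitosis members and 0 S-phase members were lower, against 8.41% of all genes.

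All 12 S-phase members had a log2 fold change below 0 in the KI livers, from -0.16 (Mcm7) to -0.38 (Mcm2), with a median of -0.25. Of the 24 mitosis members 23 were below 0, with a median of -0.14, and Cenpa was at 0.04. Over all genes tested, 53.2% were below 0 and the median was -0.02. These genes came from the same 7 livers, and the members are not independent of each other. Both KI livers lay below all 5 WT livers for 6 S-phase members (Mcm2, Mcm6, Pcna, Rrm1, Tyms and Cdc6) and 5 mitosis members (Mki67, Ccna2, Ccnb2, Cenpe and Cenpf), where 12.7% of all genes did.

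Ccna2 was at 179 and 192 CPM in the KI livers and at 284, 234, 258, 224 and 207 CPM in the WT livers (log2 fold change -0.37, adjusted p = 0.204 from edgeR). Cenpe, the motor that pulls chromosomes to the spindle equator, was at 58.1 and 60.9 CPM against 64.7 to 88.1 (-0.38, adjusted p = 0.168). Cenpf, a large kinetochore protein, was at 87.3 and 89.1 CPM against 98.7 to 132 (-0.31, adjusted p = 0.221). For these genes the gap between the lowest WT liver and the nearest KI liver was small beside the WT range.

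The helicase gene Mcm6 (mm9, chr1:130228168-130256233, minus strand, 16 exons) was at 241 and 241 CPM in the KI livers and at 331, 281, 292, 252 and 253 CPM in the WT livers (log2 fold change -0.21, adjusted p = 0.425). Mcm2 was at 157 and 172 CPM against 175 to 254 (-0.38, adjusted p = 0.291 from edgeR). Rrm1 was at 288 and 290 CPM against 293 to 414 (-0.24, adjusted p = 0.400) and Cdc6 at 39.6 and 40.9 CPM against 41.4 to 60.7 (-0.35, adjusted p = 0.316). In each of them the lowest WT liver was WT 4 or WT 5. Rrm2 was at 210 and 215 CPM and overlapped WT 5 (214 CPM). Among the rest, Mcm3, Mcm4, Mcm5, Mcm7 and Cdt1 overlapped the WT livers, with log2 fold changes of -0.20, -0.25, -0.26, -0.16 and -0.28.

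The WT livers were ordered alike for most members. WT 1 was the highest WT liver for 10 of 12 S-phase and 21 of 24 mitosis members, and WT 5 was the lowest for 10 and 18. The highest WT liver exceeded the lowest by a median factor of 1.43 for S phase and 1.37 for mitosis. The KI scores, 6.74 and 6.81 for S phase and 6.28 and 6.30 for mitosis, lay close to WT 5 (6.79 and 6.29), and only KI 1 was below it on both.

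The other mitosis members were not called in the KI livers, and their log2 fold changes ran from -0.35 to 0.04. The checkpoint genes Bub1, Bub1b, Ttk and Cdc20 ran from -0.12 to -0.0005, and the passenger complex genes Aurkb, Birc5 and Cdca8 from -0.12 to -0.05. The kinases and cyclins Cdk1, Ccnb1, Ccnb2, Plk1 and Aurka gave -0.11, -0.13, -0.24, -0.24 and -0.35. Of the motors and spindle proteins, Kif20a had -0.10, Kif11 -0.14, Tpx2 -0.14, Kif2c -0.16, Nusap1 -0.17 and Kif23 -0.26. Top2a was at 304 and 325 CPM against 314 to 475 CPM, with -0.26.

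The call of Mki67 was fragile. Over 13 other settings its log2 fold change ran from -0.59 to -0.42 and its adjusted p from 0.0113 to 0.638, with the call made in 7. It was not made without KI 1 (0.372), KI 2 (0.432), WT 2 (0.139) or WT 3 (0.170), with total counts (0.139) or in a fit of all 21 libraries (0.638).

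Markers of other cells moved with genotype in the same livers. All 8 erythroid markers were below 0 in the KI livers, 3 of them were called lower, and the KI livers lay below all WT livers for 6. Over all 14966 genes, 1.68% were called lower, and 12.7% had both KI livers below all WT livers. Their summed level was 4061 and 4179 CPM in the KI livers and 4933 to 6680 CPM in the WT livers, without overlap. Slc4a1, the anion exchanger of red cells, was at 1899 and 1918 CPM against 2307 to 3204 CPM (log2 fold change -0.51, adjusted p = 0.0956). Of the 7 leukocyte markers, 5 were called higher, as were 582 of all 14966 genes. Their summed levels were 1299 and 1763 CPM in the KI livers against 994 to 1228 CPM in the WT livers. The T cell gene Cd3e was at or near 0 in every liver. The 8 hepatocyte markers were not called, and their sums overlapped. Of 6 haematopoietic progenitor markers 5 were above 0 in the KI livers (median 0.23), unlike the erythroid markers. All 6 fibroblast markers were below 0 (median -0.74). In both of these lists 0 markers were called, and the sums overlapped between genotypes. The part of these cell types in the levels of the members was not tested.

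**Figure D3:**
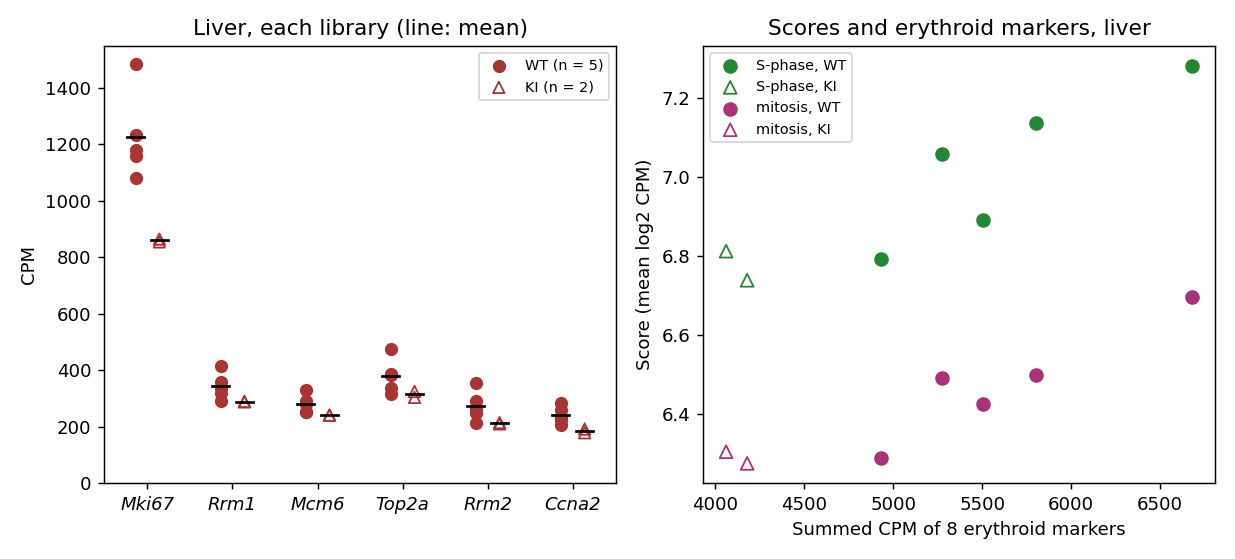
Left, CPM of 6 members in each WT (filled circles) and KI liver (open triangles), with lines at the means, where the Mki67 values do not overlap between genotypes. Right, the S-phase and mitosis scores of each liver (y axis, mean log2 CPM) against its summed CPM of 8 erythroid markers (x axis), where WT 1 is highest on both axes and the KI livers are lowest on the x axis (4061 and 4179).

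Among the other cell-cycle genes in the liver, 1 of 36 replication genes (Ticrr) and 1 of 18 transcription factors (Tfdp2) were called lower, and none of 46 mitosis genes, 11 G1 cyclins and kinases or 5 tested CDK inhibitors was (edgeR, with 10, 2 and 0 lower at an unadjusted p under 0.05). At that level 3 replication genes and 5 transcription factors were lower, against 8.41% of all genes. The replication genes had a median of -0.11, with 28 below 0, and the mitosis genes -0.17, with 39 below 0. The medians of the members were -0.25 (S phase) and -0.14 (mitosis), so the order of the 2 phases was not the same in the wider lists. Ticrr, which helps to fire replication origins, was at 23.6 and 24.6 CPM in the KI livers against 30.2 to 36.7 CPM (log2 fold change -0.43, standard error 0.117, adjusted p = 0.0944 from edgeR). Tfdp2, a DNA-binding partner of E2F factors, was at 129 and 162 CPM against 193 to 236 CPM (-0.54, standard error 0.132, adjusted p = 0.0693). Neither overlapped the WT livers.

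In the skin no member was called between KI and WT mice. The count was 0 of 36 by edgeR and by DESeq2, where edgeR called 0.0247% of 16163 genes in either direction and DESeq2 called 96 higher and 11 lower. All 36 log2 fold changes were below 0, with medians of -0.26 for S phase and -0.13 for mitosis, while 56.7% of all genes were below 0 with a median of -0.03. At an unadjusted p under 0.05 from edgeR, 3 S-phase members (Tyms, Cdc6 and Mcm4) and 1 mitosis member (Aurka) were lower, against 1.68% of all genes. By DESeq2 2 and 1 were, but the share of all genes by DESeq2 at that level was not taken. Both KI skins lay below all WT skins for 5 S-phase members (Mcm3, Mcm4, Mcm7, Tyms and Cdc6) and 2 mitosis members (Cdk1 and Aurka), against 3.84% of all genes.

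Tyms was at 22.1 and 21.9 CPM in the KI skins and at 29.7, 26.4, 23.9, 30.7 and 27.1 CPM in the WT skins (log2 fold change -0.34, standard error 0.129, unadjusted p = 0.0289 and adjusted p = 0.999 from edgeR). Cdc6 was at 9.23 and 7.61 CPM against 10.3, 10.4, 10.7, 11.9 and 14.5 CPM (-0.47, standard error 0.198). Mcm4 was at 60.5 and 58.1 CPM against 64.6 to 73.3 (-0.22), and Aurka at 24.9 and 24.5 CPM against 28.1 to 33.6 (-0.30). The gaps to the nearest WT skin were within the spread of the WT skins. The remaining S-phase members ran from -0.14 (Cdt1) to -0.32 (Mcm5), and WT 4 was the highest WT skin for 11 of the 12. The remaining mitosis members ran from -0.03 (Cenpe) to -0.40 (Kif2c).

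KI 2 and WT 5 stood apart in the skin by their keratinocyte markers. The summed level of 5 suprabasal markers was 206 CPM in KI 2 and 325 CPM in WT 5, and 9651 CPM in KI 1, against a WT range of 325 to 11310 CPM. Krt10, the keratin of differentiating epidermis, was at 45.2 and 70.3 CPM in these libraries and at 446 to 3331 CPM in the others. Without both of them, the median was -0.23 for the S-phase and -0.033 for the mitosis members, with -0.04 over all genes, and 0 members were called by edgeR. With KI 2 alone left out, these medians were -0.23, -0.04 and -0.04. KI 2 was also the lower KI skin for most members, with a mitosis score of 5.66 against 5.84 in KI 1, and 23 of 24 mitosis members were below the WT median in KI 2 and 14 in KI 1. The summed leukocyte markers were higher in both KI skins, at 264 and 344 CPM against 175 to 236 CPM. Of the 7 markers 6 were above 0 and 1 below, and 0 were called. What the cell make-up of the pieces contributed to the S-phase values was not tested.

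Of the other cell-cycle lists, none had a called gene in the skin. All 36 other replication genes were below 0, with a median of -0.19, and 4 were lower at an unadjusted p under 0.05 (edgeR). Dut, which removes dUTP, had a log2 fold change of -0.35, Ccnf, a cyclin of a ubiquitin ligase, -0.32, and Ncapg, a condensin subunit, -0.40, each with an adjusted p of 0.999.

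The brain gave no called member either, and 0 of 16322 genes (0%) were called by edgeR in either direction. The medians were -0.06 for S phase and -0.12 for mitosis, with -0.02 over all genes, and 8 of 12 and 18 of 24 members were below 0, against 52.8% of all genes. At an unadjusted p under 0.05 from edgeR, 1 S-phase member (Pcna) and 0 mitosis members were lower, against 7.81% of all genes. DESeq2 also called 0 members at an adjusted p under 0.1, where it called 80 of all genes higher and 524 lower. At the unadjusted level DESeq2 had 1 and 2 members, but its share of all genes there was not taken. Both KI brains lay within the WT range for 8 S-phase and 21 mitosis members, and below all WT brains for Pcna, Tyms, Cenpa and Birc5, which 11.2% of all genes did.

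The WT brains differed from each other more than the KI brains differed from them. Mki67 was at 45.8 and 39.8 CPM in WT 1 and WT 3 and at 19.2, 21.6 and 18.6 CPM in WT 2, WT 4 and WT 5, with KI brains between at 27.8 and 38.8 CPM. The highest WT brain exceeded the lowest by a median factor of 2.28 for mitosis and 1.56 for S phase. WT 1 was the highest for 17 of 24 mitosis members, and WT 2 was the lowest for 15. The same pair of libraries led for Atoh1, the factor that defines granule cell progenitors of the cerebellum, with 6.60 and 4.46 CPM in WT 1 and WT 3 against 0.909 to 1.27 CPM in the other WT brains. Pax6 had 54.1 and 42.4 CPM against 19.9 to 26.1 CPM. Over the whole lists the split was less plain. The summed neural progenitor markers were highest in WT 5 (314 CPM), which had the lowest Mki67. They stood at 266 and 219 CPM in WT 1 and WT 3 and at 197 and 210 CPM in WT 2 and WT 4. The summed granule progenitor markers were at 311 and 243 CPM in WT 1 and WT 3. In WT 2, WT 4 and WT 5 they were at 209, 226 and 149 CPM. The part of dissection or cell make-up in this spread was not tested.

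WT 5 stood apart from the other WT brains in another way. It had the lowest Mki67 and Cenpe of the WT brains (4.31 CPM for Cenpe against 5.81 to 10.4) but the highest Cenpa, Birc5, Aurka, Ccnb1 and Cdc20. Birc5, which encodes survivin, was at 14.8 CPM in WT 5 and at 10.2, 5.78, 9.18 and 6.53 CPM in WT 1 to 4, with 5.65 and 5.40 CPM in the KI brains (log2 fold change -0.84, standard error 0.385, adjusted p = 0.490). Cenpa was at 20.9 CPM in WT 5, 16.5, 8.59, 10.02 and 8.89 CPM in the other WT brains, and 7.78 and 7.97 CPM in the KI brains (-0.81, standard error 0.404, adjusted p = 0.535). Ccnb1 was at 2.95 and 2.60 CPM against 2.81 to 6.15 CPM (-0.75). Ttr, a gene of hepatocytes and of the choroid plexus, was at 2027 CPM in WT 5 and at 27.3, 17.1, 291 and 972 CPM in WT 1 to 4, while Alb was under 6 CPM in every brain. Cenpa has a transcript of 1354 bases and Birc5 one of 3334, and those of Cenpe and Cenpf have 7813 and 11137.

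Across the 36 members the log2 fold change in the brain had a Pearson r of 0.40 with the log2 transcript length, and 0.14 without WT 5, as a description over genes that share the same libraries. The 11 members of up to 2500 bases had a median of -0.33 and the 25 longer ones -0.09, and without WT 5 the medians were -0.11 and -0.12. Over 14881 genes with a known length r was 0.51 in the brain, against -0.12 in the liver and 0.05 in the skin. Without WT 5, 672 genes were called higher and 1026 lower in the brain, and still 0 members were called.

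**Figure D4:**
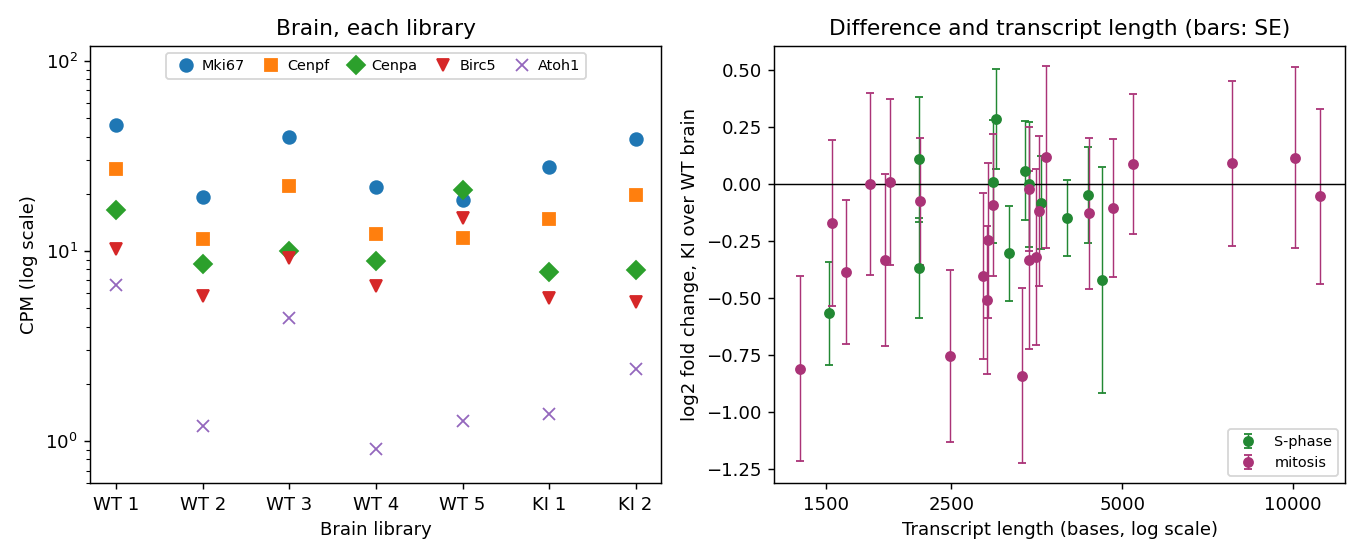
Left, CPM (log axis) of 4 members and of Atoh1 in each brain library, where WT 1 and WT 3 are high for Mki67, Cenpf and Atoh1 while WT 5 is high for Cenpa and Birc5. Right, log2 fold change of each member between KI and WT brains (y axis, bars of 1 standard error) against transcript length in bases (log axis), where the lowest values belong to Birc5 (-0.84) and Cenpa (-0.81).

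Pcna was the member with the smallest p in the brain. It was at 17.1 and 18.4 CPM in the KI brains and at 33.9, 20.97, 24.6, 20.8 and 23.8 CPM in WT brains 1 to 5 (log2 fold change -0.57, standard error 0.225, unadjusted p = 0.0357 and adjusted p = 0.433 from edgeR). Its transcript, of 1518 bases, is among the short ones. Tyms was at 5.46 and 5.85 CPM against 5.86 to 8.01 (-0.30), a gap smaller than the WT spread. The MCM subunits ran from -0.08 (Mcm4) to 0.28 (Mcm3), and Rrm1, Rrm2, Cdc6 and Cdt1 had -0.15, -0.37, -0.42 and 0.11. Of the mitosis genes not yet given, Cdk1 had -0.51, Kif2c -0.40 and Cdca8 -0.38, and the others ran from -0.33 (Aurka) to 0.12 (Bub1b).

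The other cell-cycle lists had no called gene in the brain (edgeR). The 36 replication genes had a median of -0.14 with 3 lower at an unadjusted p under 0.05, and the 46 mitosis genes -0.21 with 3. Gmnn, geminin, which binds Cdt1 and blocks relicensing, was at 3.57 and 3.76 CPM against 5.72 to 9.85 CPM (log2 fold change -1.19, standard error 0.302, adjusted p = 0.270). Orc6, a subunit of the origin recognition complex, had -0.83 (adjusted p = 0.270), Cks1b, a partner of cyclin-dependent kinases, -0.89 (0.391) and Mad2l1, a checkpoint protein, -0.72 (0.404).

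**Figure D5:**
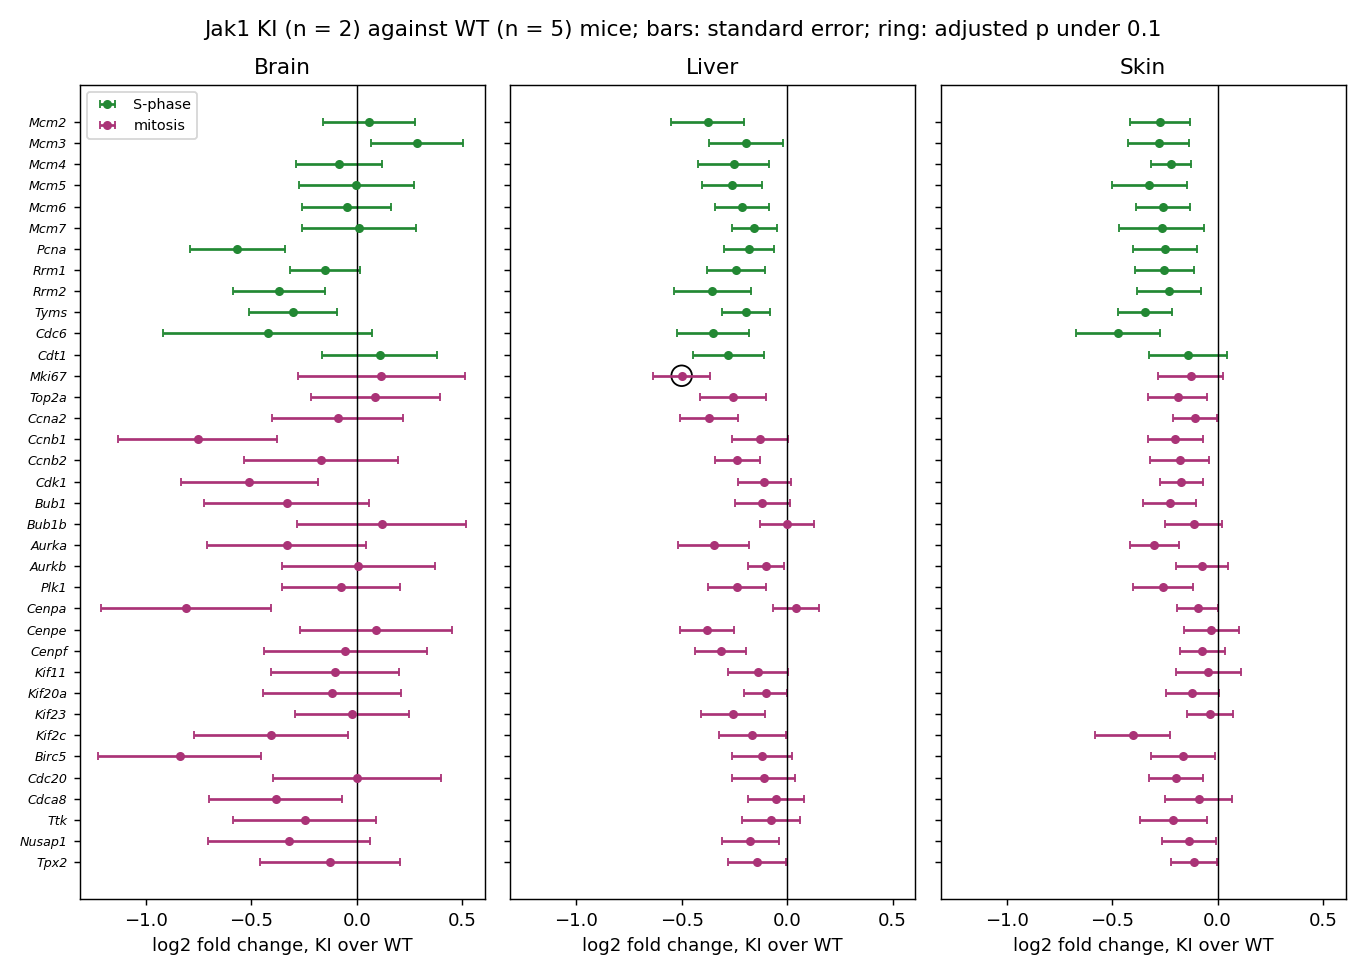
Log2 fold change of each of the 36 members between KI (n = 2) and WT (n = 5) mice in brain, liver and skin (x axes, bars of 1 standard error), with green for S phase, purple for mitosis and a ring at an adjusted p under 0.1. The bars are longest in the brain, and the ring stands at Mki67 in the liver (-0.50).

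The interaction of genotype with tissue was tested in a fit of all 21 libraries. For liver against brain, 0 members were called (edgeR and DESeq2), against 2.81% of 18062 genes, with 1 S-phase and 1 mitosis member at an unadjusted p under 0.05 (15.1% of genes). These were Mcm3, whose effect in the liver was lower than in the brain by 0.58 on the log2 scale (standard error 0.262), and Cenpa, whose effect was 0.75 higher (standard error 0.350). For skin against brain 0 members were called, against 0% of genes, and Mcm3 alone had an unadjusted p under 0.05 (edgeR), against 7.41% of genes. For liver against skin 0 members were called, against 0.0997% of genes, and 0 passed the unadjusted level (edgeR), which 5.54% of genes did. DESeq2 also called 0 members in these comparisons. For Mki67 the effect in the liver minus that in the skin was -0.40 with a standard error of 0.406, so a difference between these tissues was not resolved with 2 KI mice.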

How the data were processed

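Total RNA of newborn brain, liver and skin was measured by paired-end RNA-seq (TruSeq libraries, 2 KI and 5 WT mice). The authors trimmed adapters, aligned reads to mm9 with TopHat2 and deposited raw counts per gene symbol from HTSeq. Strand setting, counting mode and annotation are not given in the sources used here, so overlapping genes may share reads. Reads placed more than once (17.1% to 25.4% of the total) are listed apart and were left out.

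Counts were filtered with filterByExpr, normalised by TMM and fitted in edgeR 4.0.16 (R 4.3.3), whose quasi-likelihood F-test was applied, within each tissue for KI against WT, over the 15 WT libraries for tissues, and over all 21 for interactions. Genes were called at a Benjamini-Hochberg adjusted p under 0.1 over all genes tested. CPM use TMM, and scores are mean log2 CPM (prior count 2). Positions and transcript lengths are GENCODE M1 on mm9, with the longest transcript of each gene, protein-coding where there is one. Libraries with the same number and genotype were taken as 1 mouse, separate mice are the replicates, and litters are not given. The members and lists were chosen with earlier results of these data known. All members were named, with called genes of the other lists or, where none was called, the 4 with the smallest p (1 such gene in the skin is not reported here), and by level per length in WT tissues.

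Alternatives were DESeq2 1.42.0 (its size factors, its Wald test), total counts, no filter, an adjusted p of 0.05, the replicate number as a block, each mouse left out, 1 fit of 21 libraries, a length correction, and for scores the median and a prior count of 0.5. Leaving out skins KI 2 and WT 5 together was added after seeing the data. On simulated counts edgeR recovered 35.0% (brain), 67.3% (liver) and 36.6% (skin) of 2-fold changes, and 82.5%, 95.8% and 77.8% of 4-fold changes, on 16322, 14966 and 16163 genes. With 200 genes changed in each simulation, 19 (brain), 25 (liver) and 15 (skin) unchanged genes were also called. Figures used matplotlib 3.10.9.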

Additional observations from a re-analysis of the deposited data

Results flagged for a closer look

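Over 114 groups of 4 or more values, 5 held 1 WT mouse far from the others by Dixon's test, where chance gives about 5.7. In the skin, WT 4 was high for Rrm2 (72.3 CPM, next 55.3) and Mcm7 (82.2 CPM, next 58.3), and WT 3 was low for Cenpa (58.6 CPM, next 64.4). Brain WT 1 was high for Pcna (33.9 CPM, next 24.6). Liver WT 1 was high for Ttk (24.6 CPM, next 20.7).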

How the results depend on the processing

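For KI against WT in the liver, the count of mitosis members called (1) became 0 with total counts, in the fit of all 21 libraries and at an adjusted p of 0.05, and ran from 0 to 2 with 1 mouse left out, 0 without KI 1, KI 2, WT 2 or WT 3 and 2 without WT 5 (Cenpe added, adjusted p = 0.0808). With KI 1 or KI 2 left out, the remaining KI mouse is assumed to vary like the WT mice. The S-phase median there ran from -0.29 to -0.16 and the mitosis median from -0.19 to -0.08. With the replicate number as a block, 2 S-phase members (Mcm2 and Cdt1) and 2 mitosis members (Mki67 and Kif23) were called lower. In that fit 346 of all 14966 genes were called lower. KI and WT mice share only a number, and same-numbered deviations correlated between -0.08 and 0.17. The block changed 1 other call, Bub1b in WT liver over skin (log2 fold change 0.36). In the skin, the S-phase median ran from -0.29 to -0.20 and the mitosis median from -0.20 to -0.04 (the value without KI 2) with 1 mouse left out, and leaving out KI 2 and WT 5 together moved the mitosis median to -0.033. In the brain it ran from -0.31 to 0.08 and that of S phase from -0.19 to 0.04 with 1 mouse left out, so their sign is not settled. WT skin over brain gave a mitosis median of 2.19 to 2.43 with 1 mouse left out.

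With total counts, WT liver over brain gave medians of 2.22 (S phase) and 2.22 (mitosis), and liver over skin 0.46 and -0.18. In liver over skin 1 S-phase member was called lower, and 4 mitosis members were called higher and 7 lower. Of all 17071 genes, 2884 were called higher and 11144 lower there. Liver over skin turned for Tyms (-0.39), Top2a (-0.026), Ccnb1 (-0.55), Cdk1 (-0.45), Bub1 (-0.17), Aurkb (-0.47), Plk1 (-0.20), Cenpa (-0.25), Cenpe (-0.0041), Cenpf (-0.088), Kif20a (-0.19), Kif23 (-0.68), Cdc20 (-0.65), Ttk (-0.59) and Tpx2 (-0.20). Bub1b, called under neither scaling, also turned (-0.33). The scaling itself moves every gene there by the same amount. The other counts and medians of members stayed within 1.5 times or 1 SD in 377 comparisons with other settings. With 2 KI mice, 2-fold changes were missed often in the brain and skin, and smaller ones more so.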
